A study of Mus musculus with 23 samples.

Results

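Vimentin (Vim), desmin (Des), nestin (Nes), lamin A/C (Lmna) and lamin B1 (Lmnb1) are intermediate filament proteins, and their transcripts were followed in 23 single mouse cells. Every probe set that the array annotation assigns to 1 of these 5 genes was taken, which gave 5 of 18193 genes with a probe set of their own and 15 of the 45101 probe sets in the table: 3 for Vim, 2 for Des, 3 for Nes, 5 for Lmna and 2 for Lmnb1. The study moved the poly-A RNA of one cell type into another with a lipid reagent, a procedure called transcriptome transfer or TIPeR, and measured each recipient cell on 1 Affymetrix array. The reference types were 3 fibroblast cells and 4 cardiomyocyte cells, which received no RNA. The fibroTIPeR group held 5 fibroblasts given cardiomyocyte RNA, and the fibroControl group 3 fibroblasts given fibroblast RNA. The astroTIPeR group held 6 astrocytes given cardiomyocyte RNA, and the astroControl group 2 mock transfected astrocytes. All cells were grown in DMEM with serum, drawn into a glass micropipette, and their RNA was amplified before labelling. The labels name no strain, age, time after transfer, culture or animal, so n counts cells and every p-value measures how these cells scatter, in part perhaps for technical reasons, and does not reach to cultures or animals.

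Intermediate filaments are rope-like polymers that give a cell mechanical strength. Vimentin forms the cytoplasmic network of fibroblasts and other mesenchymal cells and is also made by astrocytes, while desmin forms the network of muscle cells, where it ties the Z-discs of the sarcomeres to each other and to the membrane. Nestin co-assembles with vimentin or desmin and is known from neural and muscle progenitors. Lamins A/C and B1 line the inner nuclear membrane; Lmna is low in many undifferentiated cells and rises with differentiation, whereas B-type lamins are made in nearly all cells.

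The promoters of Vim and Lmna are shown because some of their probe sets varied together, and that of Des because it is the muscle member whose probe sets did not follow the cell type. Each line gives the 250 bases before a transcript start from RefSeq, build GRCm38.p6, 5′ to 3′ on the strand of the gene. Capitals mark matches to motifs searched on both strands: the TATA box TATAAA, the CCAAT box CCAAT, the GC box GGGCGG, the E-box CANNTG, the AP-1 site TGANTCA and the CArG box. The windows were chr2:13574061-13574310 on the plus strand for Vim, chr1:75360042-75360291 on the plus strand for Des, and chr3:88503353-88503602 and chr3:88493313-88493562 on the minus strand for 2 starts listed for Lmna. The Lmna gene spans chr3:88481148-88509932, so both of its windows lie inside the gene. The window before its outermost 5′ end is not shown.
Vim: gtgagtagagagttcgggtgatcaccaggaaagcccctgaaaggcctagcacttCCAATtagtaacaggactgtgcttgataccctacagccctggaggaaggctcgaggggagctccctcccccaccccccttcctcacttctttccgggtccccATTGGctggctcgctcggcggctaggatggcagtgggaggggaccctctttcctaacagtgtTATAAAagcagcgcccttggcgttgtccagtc
Des: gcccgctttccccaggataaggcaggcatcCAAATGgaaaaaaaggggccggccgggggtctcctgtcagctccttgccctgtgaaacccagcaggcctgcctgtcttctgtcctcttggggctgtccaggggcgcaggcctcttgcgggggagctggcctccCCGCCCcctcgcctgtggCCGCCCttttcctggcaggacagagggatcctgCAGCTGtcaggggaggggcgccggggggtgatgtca
Lmna start 1: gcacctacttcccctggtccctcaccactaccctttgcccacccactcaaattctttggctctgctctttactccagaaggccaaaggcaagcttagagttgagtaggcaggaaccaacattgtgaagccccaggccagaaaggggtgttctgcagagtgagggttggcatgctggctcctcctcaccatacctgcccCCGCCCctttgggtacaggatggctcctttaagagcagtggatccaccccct
Lmna start 2: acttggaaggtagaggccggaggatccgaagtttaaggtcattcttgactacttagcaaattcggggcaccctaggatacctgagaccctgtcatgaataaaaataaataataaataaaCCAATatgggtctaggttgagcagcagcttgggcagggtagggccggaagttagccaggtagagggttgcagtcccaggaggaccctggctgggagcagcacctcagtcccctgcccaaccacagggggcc
The Vim window held TATAAA with its first base 32 bases before the start and CCAAT boxes at 196 and, on the other strand, at 94. The Des window held E-boxes, the motif of myogenic bHLH factors, at 220 (CAAATG) and 36 (CAGCTG) and GC boxes at 87 and 69. Lmna start 1 held a GC box at 52, and start 2 a CCAAT box at 131. Of 32851 mouse promoter windows of this length, 66.2% held an E-box, 12.4% TATAAA, 32.7% a GC box and 33.8% CCAAT; the AP-1 site, found in 6.75%, and the CArG box, found in 1.47%, had no match in these 4 windows. A match describes letters only.

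Levels are log2 intensities of the deposited table after quantile normalization of all columns, a scale on which the median over all probe sets was 5.05 and the 90th percentile 9.41. Probe sets differ in their affinity, so a level is compared between cells and never between probe sets. As a check of the labels, the mean of 8 cardiomyocyte markers was 8.49 to 9.54 in the cardiomyocytes and 4.14 to 6.79 elsewhere, with troponin I (Tnni3) at 10.54 to 12.81 against at most 6.58. Tnnt2 and Nppa of this list did not follow. Tnnt2 was 7.56 to 8.52 in cardiomyocytes and 6.41 to 11.28 in fibroblasts, and Nppa was 2.84 to 5.66 against 4.37 to 5.94. The mean of 8 fibroblast markers overlapped between the types, at 7.41 to 9.84 in fibroblasts and 5.64 to 7.51 in cardiomyocytes. Cardiomyocyte 4 had the 7.51. It was 6.96 to 9.88 in fibroControl and 7.19 to 8.07 in fibroTIPeR, and Dcn of that list was higher in cardiomyocytes (10.00 to 10.34) than in fibroblasts (8.58 to 9.06). The mean of 8 astrocyte markers did not set the astrocytes apart. This mean was 6.57 to 7.89 in astrocytes and 7.45 to 8.04 in cardiomyocytes, and the defining marker Gfap was 3.54 to 6.28 in the astrocytes. The 15 fibroblast and cardiomyocyte columns and the 8 astrocyte columns had been deposited with different ranges, so cell type and column set cannot be told apart in the differences between astrocytes and cardiomyocytes. The 18S ribosomal RNA controls were at 11.03 to 13.48 in fibroTIPeR 1 to 3 and the 3 fibroControl cells, and at 6.94 to 9.57 in the other 17 cells. The Gapdh controls read higher at the 3′ end than at the 5′ end by 1.51 and 2.63 in the mock transfected astrocytes. In the astroTIPeR cells this excess was 2.94 to 5.05, without overlap. Its part in the differences between astroTIPeR and astroControl was not tested. The number of arrays limits the precision of every value.

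**Figure D1:**
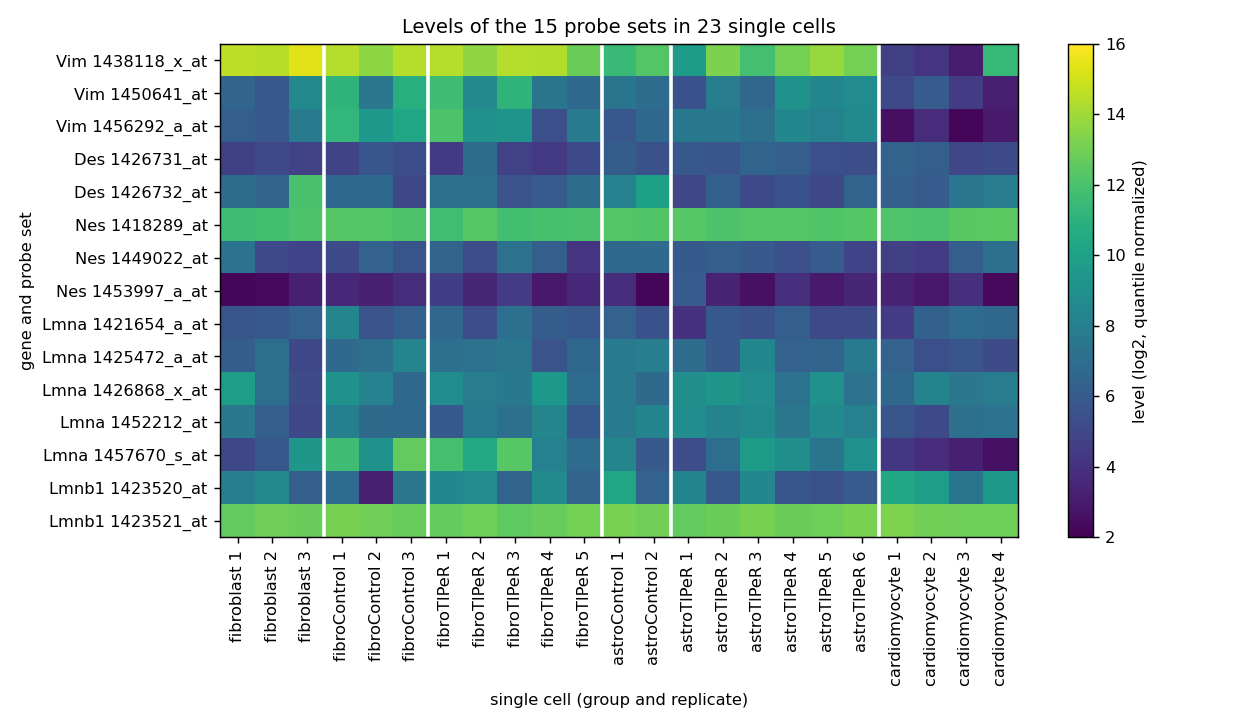
Level (log2, quantile normalized, by colour) of the 15 probe sets (rows) in the 23 cells (columns, by group, white lines between groups). The row of Vim 1438118_x_at is darkest in cardiomyocytes 1 to 3, and the rows of Nes 1418289_at and Lmnb1 1423521_at hardly vary in colour.

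Vim separated the cardiomyocytes from the fibroblasts by the widest margin of all members. On 1438118_x_at the fibroblasts read 14.61, 14.57 and 15.38, and cardiomyocytes 1 to 4 read 4.65, 4.17, 3.05 and 11.38. The groups did not overlap, and cardiomyocyte 4 stood far above the other cardiomyocytes. The difference, cardiomyocyte minus fibroblast, was -9.04 (SE 1.12, n = 4 and 3; limma with Benjamini-Hochberg adjustment, adjusted p = 7.38e-05), and -10.9 without cardiomyocyte 4. It kept its size but not its call when the fit held those 2 groups alone (adjusted p = 0.0702). In this comparison 0.127% of the 45037 probe sets tested passed the threshold of 0.05, and 0.0622% passed it as lower in cardiomyocytes. Whatever their p, 4.06% were lower in cardiomyocytes without overlap of the groups. The suffix x marks a probe set that may also bind other transcripts.

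The other Vim probe sets were lower in the cardiomyocytes too, but did not pass. On 1456292_a_at, where the suffix a marks several transcripts of 1 gene, the fibroblasts read 6.26, 5.78 and 7.71 and the cardiomyocytes 2.56, 3.76, 2.25 and 3.01. The groups did not overlap, and the difference of -3.69 (SE 1.03) had an adjusted p of 0.202. On 1450641_at the fibroblasts read 6.58, 5.86 and 8.56 and the cardiomyocytes 5.10, 6.10, 4.49 and 3.17, so cardiomyocyte 2 lay within the range of the fibroblasts. That difference was -2.29 (SE 1.16, adjusted p = 0.557).

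Fibroblasts given cardiomyocyte RNA read near the fibroblast level of Vim on 1438118_x_at. The fibroTIPeR cells read 14.43, 13.69, 14.43, 14.38 and 12.87, and the fibroControl cells, given fibroblast RNA, 14.46, 13.60 and 14.44. All 8 lay below the lowest fibroblast, at 14.57, and above all 4 cardiomyocytes. The 2 recipient groups overlapped and differed by -0.21 (95% interval -2.40 to 1.98; adjusted p = 0.990), and fibroTIPeR minus fibroblast was -0.90 (-3.09 to 1.30; adjusted p = 0.825) and fibroControl minus fibroblast -0.69 (-3.14 to 1.77; adjusted p = 0.825), neither past the threshold. Against the cardiomyocytes, fibroTIPeR was higher by 8.15 (SE 0.98, adjusted p = 2.98e-05) and fibroControl by 8.36 (SE 1.12, adjusted p = 2.22e-04), with no overlap in either. Without cardiomyocyte 4 these were 10.0 and 10.2. Higher without overlap were 1.88% of all probe sets in fibroTIPeR minus cardiomyocyte and 7.7% in fibroControl minus cardiomyocyte. Lower without overlap were 2.62% in fibroTIPeR minus fibroblast and 10.9% in fibroControl minus fibroblast.

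**Figure D2:**
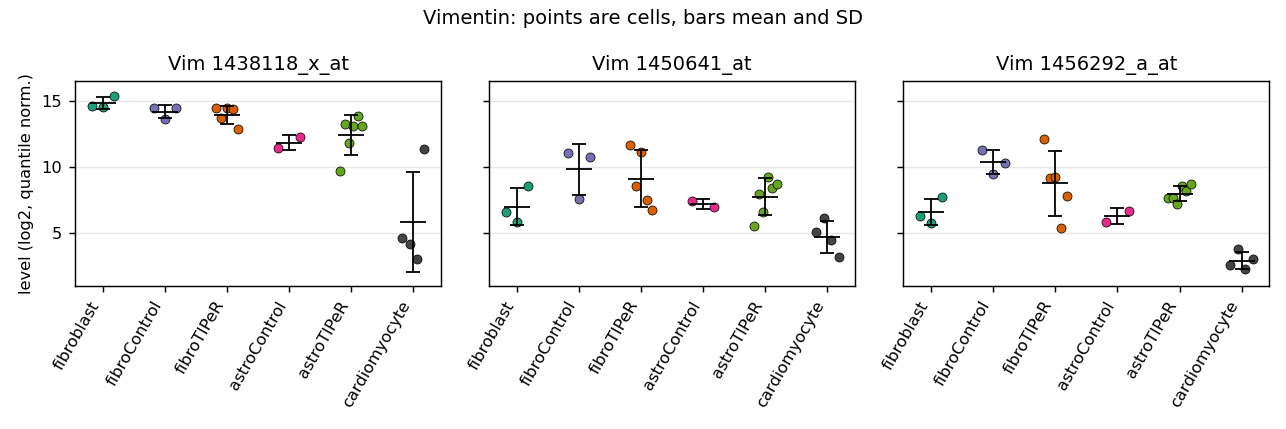
Levels (log2, quantile normalized) of the 3 Vim probe sets, 1 point a cell, with the mean and SD of each group. On 1438118_x_at the 11 fibroblast-derived cells lie between 12.87 and 15.38, while cardiomyocyte 4, at 11.38, lies apart from the other 3 cardiomyocytes; on the other probe sets the cardiomyocytes have the lowest mean.

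The other Vim probe sets were spread widely among the fibroblasts that had received RNA. On 1456292_a_at the fibroTIPeR cells read 12.12, 9.18, 9.24, 5.39 and 7.80, and the fibroControl cells 11.28, 9.45 and 10.31. FibroTIPeR 1, 2, 3 and 5 and every fibroControl cell were above all 3 fibroblasts, cell 5 by little, and fibroTIPeR 4 was below all of them. FibroTIPeR was higher than the cardiomyocytes by 5.85 (SE 0.90, adjusted p = 0.00118) and fibroControl by 7.45 (SE 1.03, adjusted p = 3.12e-04), both without overlap. FibroControl minus fibroblast was 3.76 (SE 1.10), also without overlap, with an adjusted p of 0.0714. In that comparison 11.9% of all probe sets were higher without overlap.

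On 1450641_at the fibroTIPeR cells read 11.63, 8.59, 11.09, 7.46 and 6.76, and the fibroControl cells 11.09, 7.54 and 10.79. All 8 were above the highest cardiomyocyte, at 6.10. The difference of group means from the cardiomyocytes was 4.39 for fibroTIPeR (SE 1.02, adjusted p = 0.0433) and 5.09 for fibroControl (SE 1.16, adjusted p = 0.0164). The fibroTIPeR call was lost in 14 of 21 alternative settings, among them each fit that left out fibroTIPeR 1 or 3 or any 1 cardiomyocyte, and the fibroControl call without fibroControl 1 or 3 or cardiomyocyte 4 (highest adjusted p of these = 0.0845).

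On 1456292_a_at the 6 cells with high 18S controls were the 6 highest of all 23. On 1450641_at the 4 highest were among them, while fibroControl 2 read below fibroblast 3 and 4 of the astroTIPeR cells. The 18S level was 12.38, 11.03 and 13.48 in fibroTIPeR 1 to 3 against 7.80 and 7.88 in fibroTIPeR 4 and 5, and 12.08, 11.23 and 11.56 in the fibroControl cells against 7.05 to 8.06 in the fibroblasts. The mean of 4 smooth muscle markers, of which 2 (Acta2 and Tagln) had the widest spread, also divided the fibroTIPeR cells: it was 9.29 to 9.35 in cells 1 to 3 and 4.83 and 4.43 in cells 4 and 5, while it ran from 5.17 to 7.72 in fibroControl, 6.59 to 8.08 in fibroblasts, 4.45 to 5.25 in cardiomyocytes, 4.91 to 9.03 in astroTIPeR and 6.94 to 8.49 in astroControl. The part of that marker list in the result was not tested.

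With the 18S level as a covariate, fibroTIPeR minus cardiomyocyte was 3.54 on Vim 1456292_a_at (adjusted p = 0.403) and 1.73 on 1450641_at (adjusted p = 0.999912). Vim 1438118_x_at was 7.20 (adjusted p = 0.0135) in the same fit. For fibroControl minus cardiomyocyte no Vim probe set passed with the covariate (7.06, 4.30 and 1.45 on 1438118_x_at, 1456292_a_at and 1450641_at, adjusted p = 0.170, 0.360 and 0.911); all 3 fibroControl cells had a high 18S level, so the group and that level can hardly be told apart. With fibroTIPeR 4 and 5 alone, Vim 1438118_x_at was 7.82 above the cardiomyocytes (adjusted p = 0.0188) and 1456292_a_at 3.70 above them (adjusted p = 0.268).

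**Figure D3:**
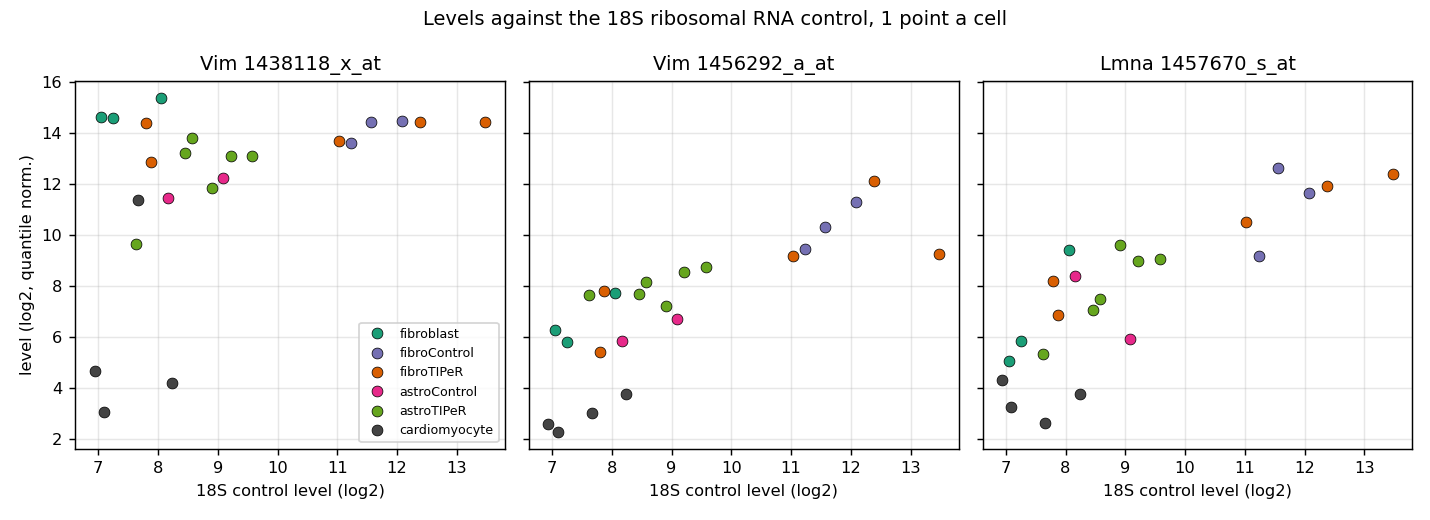
Level (log2) of 2 Vim probe sets and Lmna 1457670_s_at against the mean of the 18S controls (log2), 1 point a cell, coloured by group. The 6 cells with 18S above 11 are the highest on Vim 1456292_a_at, and 5 of them are the highest on Lmna 1457670_s_at, while on Vim 1438118_x_at the fibroblasts reach as high at an 18S level of 7.05 to 8.06.

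In the astrocytes Vim 1438118_x_at read 9.66, 13.21, 11.83, 13.10, 13.82 and 13.08 after cardiomyocyte RNA and 11.43 and 12.24 after mock transfection. The mock cells lay inside the range of the astroTIPeR cells, and the difference was 0.61 (95% interval -1.84 to 3.06; adjusted p = 0.934). AstroTIPeR was higher than the cardiomyocytes by 6.64 (SE 0.94, adjusted p = 1.60e-04), although astroTIPeR 1 lay below cardiomyocyte 4; without cardiomyocyte 4 the difference was 8.49. On 1456292_a_at astroTIPeR read 7.65, 7.66, 7.19, 8.55, 8.14 and 8.73 and astroControl 5.83 and 6.69. Every astroTIPeR cell was above both mock cells, by a mean of 1.73 (SE 1.10, adjusted p = 0.661), and above every cardiomyocyte, by a mean of 5.09 (SE 0.87, adjusted p = 0.00124). Without overlap, 6% of all probe sets were higher in astroTIPeR than in astroControl, and 3.41% were higher than in cardiomyocytes. On 1450641_at the astroTIPeR cells read 5.52, 7.94, 6.62, 9.21, 8.43 and 8.73 and the mock cells 7.44 and 6.94, and the difference from the cardiomyocytes, 3.03 (SE 0.98), did not pass (adjusted p = 0.109).

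Des, the filament protein of muscle, did not set the cardiomyocytes apart on either probe set. On 1426731_at the cardiomyocytes read 6.44, 6.25, 4.97 and 5.14 and the fibroblasts 4.63, 5.06 and 4.74. The groups overlapped, and the difference was 0.89 (SE 0.65, adjusted p = 0.701). On 1426732_at the cardiomyocytes read 6.27, 6.04, 7.48 and 7.87 and the fibroblasts 6.97, 6.54 and 11.99. Fibroblast 3 was the highest of all 23 cells there, and the difference was -1.59 (SE 0.996, adjusted p = 0.643). Without fibroblast 3 it was 0.15, so its sign rested on that cell. All 23 cells lay within 4.38 to 6.94 on 1426731_at, and 15 of them were above the median of the array. Levels so near the median limit what this probe set can show. On 1426732_at 20 of 23 cells were above it.

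After transfer, Des 1426732_at read 7.17, 7.14, 5.58, 5.99 and 6.96 in fibroTIPeR and 6.74, 6.78 and 5.03 in fibroControl, which overlapped (difference 0.39, SE 0.95, adjusted p = 0.974). The astroTIPeR cells read 4.97, 6.34, 5.15, 5.53, 5.05 and 6.47, all below the mock cells at 8.16 and 9.95. That difference of -3.47 (SE 1.06) had an unadjusted p of 0.00296 and an adjusted p of 0.195, so it did not pass. Lower without overlap in astroTIPeR than in astroControl were 5.25% of all probe sets. The Gapdh controls given above also separated these 2 groups. On 1426731_at the same 2 groups differed by 0.02 (SE 0.69, adjusted p = 0.998). The Des probe sets did not vary together: their Pearson r was -0.18 over the 15 fibroblast and cardiomyocyte cells and -0.25 over the 8 astrocytes, a description of cells that share groups and arrays.

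Nes 1418289_at read between 11.66 and 12.50 in all 23 cells. The fibroblasts read 11.66, 11.78 and 12.09 and the cardiomyocytes 12.14, 12.03, 12.41 and 12.50, a difference of 0.43 (SE 0.20) with an adjusted p of 0.529. The 5 fibroTIPeR cells ran from 11.71 to 12.37, the fibroControl cells from 12.07 to 12.30, and the astrocytes of both groups from 12.09 to 12.35. The SD over all cells was 0.232, against a median SD of 0.303 among the 970 other probe sets within 0.5 of its mean. Nes 1449022_at ran from 4.14 to 7.30 and lay above the median of the array in 18 of 23 cells; 1453997_a_at ran from 2.18 to 6.03 and did so in 1. Neither passed in any comparison (smallest unadjusted p = 0.0622, 1453997_a_at in fibroTIPeR minus fibroblast).

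**Figure D4:**
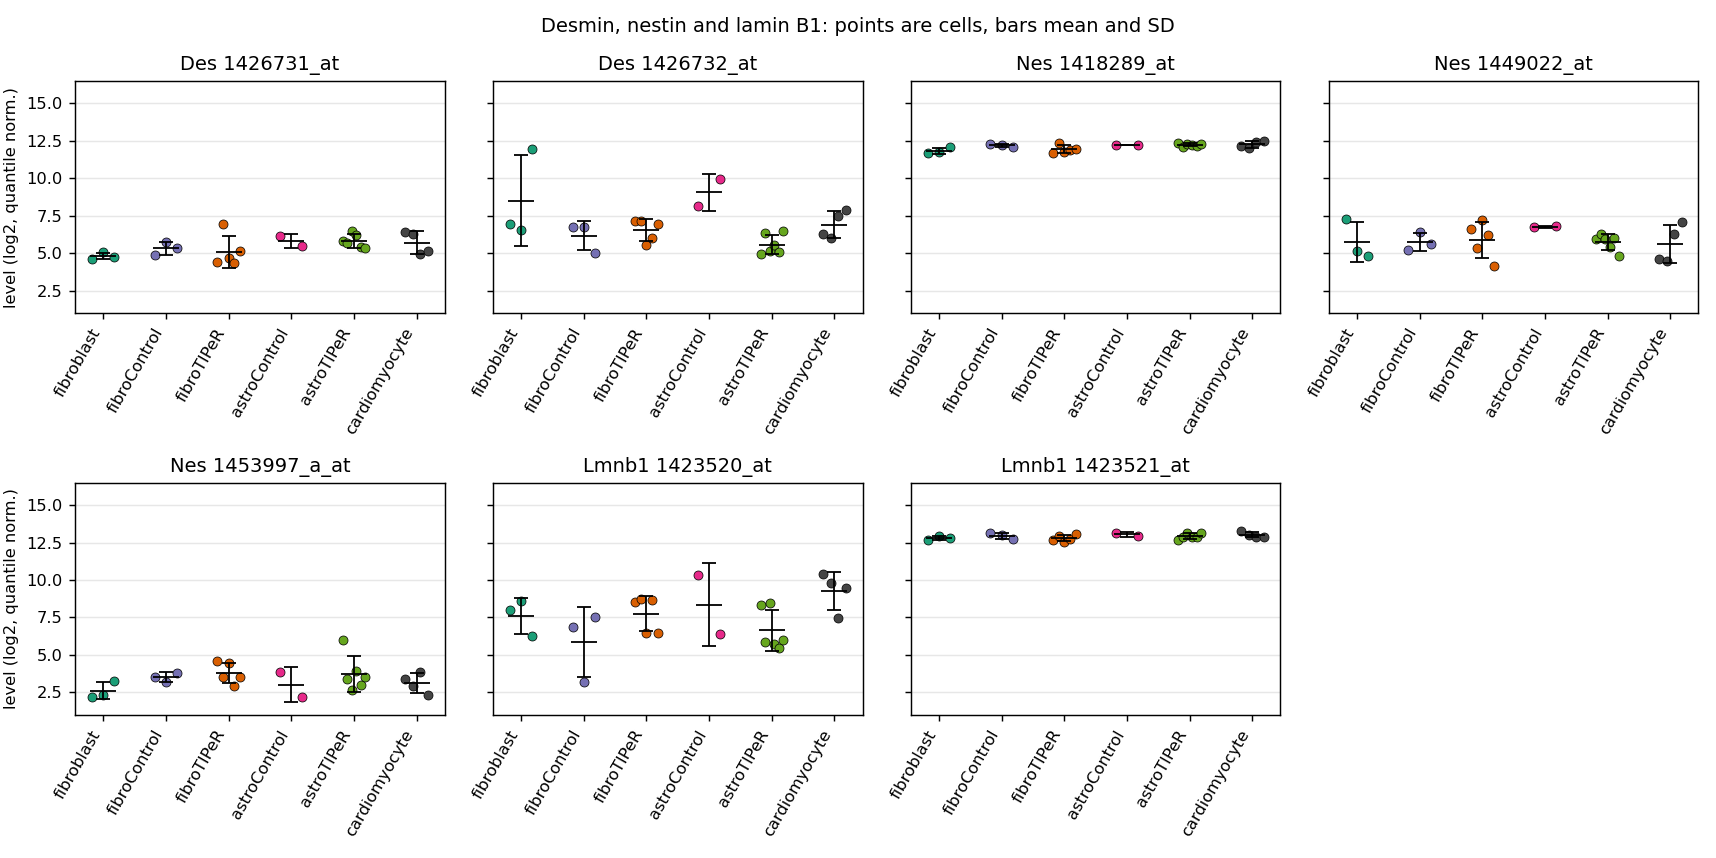
Levels (log2, quantile normalized) of the Des, Nes and Lmnb1 probe sets, 1 point a cell, with the mean and SD of each group. Nes 1418289_at and Lmnb1 1423521_at form flat bands across the 6 groups, and fibroblast 3, at 11.99, and the mock transfected astrocytes are the high points of Des 1426732_at.

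Of the 5 Lmna probe sets, only 1457670_s_at passed in comparisons with the cardiomyocytes, though not in that with the untreated fibroblasts. The cardiomyocytes read 4.28, 3.76, 3.25 and 2.61, the fibroblasts 5.04, 5.84 and 9.41, the fibroTIPeR cells 11.90, 10.50, 12.38, 8.18 and 6.87, and the fibroControl cells 11.64, 9.16 and 12.64. No cardiomyocyte reached the level of any cell of the other 5 groups. Whatever their p, 4.06% of all probe sets were lower without overlap in cardiomyocytes than in fibroblasts. Higher without overlap than in the cardiomyocytes were 1.88% in fibroTIPeR, 7.7% in fibroControl and 3.41% in astroTIPeR. The share below all 5 other groups at once was not counted. Against the cardiomyocytes fibroTIPeR was higher by 6.49 (SE 1.11, adjusted p = 0.00320) and fibroControl by 7.67 (SE 1.26, adjusted p = 0.00206). Cardiomyocyte minus fibroblast was -3.29 (SE 1.26, adjusted p = 0.426). The suffix s marks probes shared by several transcripts, which may belong to other genes.

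On Lmna 1457670_s_at the 5 highest cells also had high 18S controls, but fibroControl 2, the other cell with a high 18S level, read below astroTIPeR 3 and fibroblast 3. With the 18S level as a covariate fibroTIPeR minus cardiomyocyte was 3.52 (adjusted p = 0.784) and fibroControl minus cardiomyocyte 3.61 (adjusted p = 0.690), and with fibroTIPeR 4 and 5 alone the former was 4.05 (adjusted p = 0.818). Against the fibroblasts fibroControl was higher by 4.38 (SE 1.35, adjusted p = 0.0874; 0.29 with the covariate), and fibroTIPeR by 3.20 (SE 1.21, adjusted p = 0.340; 0.20 with the covariate). With fibroTIPeR 1 to 3 alone, the cells with high 18S, the latter was 4.83 (adjusted p = 0.0267), and Vim 1456292_a_at 3.60 (adjusted p = 0.0272).

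In the astrocytes Lmna 1457670_s_at read 5.32, 7.06, 9.62, 8.98, 7.46 and 9.03 after transfer and 8.37 and 5.90 after mock transfection. The groups overlapped (difference 0.77, SE 1.35, adjusted p = 0.921). AstroTIPeR was higher than the cardiomyocytes by 4.44 (SE 1.07, adjusted p = 0.0265), a call lost without cardiomyocyte 2, 3 or 4, without astroTIPeR 3, 4 or 6 (adjusted p of these up to 0.0817) and with the 18S covariate (3.22, adjusted p = 0.0634).

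The other 4 Lmna probe sets passed in no comparison. Lmna 1421654_a_at ran from 3.98 to 8.37 over the 23 cells, 1425472_a_at from 5.05 to 8.45, 1426868_x_at from 5.18 to 9.78 and 1452212_at from 5.05 to 8.84. Their differences between fibroTIPeR and cardiomyocyte were 0.10, 1.14, 0.55 and 0.65, against 6.49 on 1457670_s_at. The nearest to passing was 1452212_at in astroTIPeR minus cardiomyocyte. There the astroTIPeR cells read 7.55 to 8.84 and the cardiomyocytes 5.76, 5.15, 7.19 and 7.33, a difference of 1.99 (SE 0.70, adjusted p = 0.145) without overlap. Such a lack of overlap, as higher, was found in 3.41% of all probe sets. Over the 15 fibroblast and cardiomyocyte cells, r of 1457670_s_at with the others was 0.31, 0.68, 0.01 and 0.17 in the order above.

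Lmnb1 1423521_at, like Nes 1418289_at, read within a narrow band, 12.51 to 13.28 over 23 cells. Its SD of 0.192 compares with a median of 0.218 among 436 other probe sets within 0.5 of its mean. On 1423520_at the cardiomyocytes were highest by mean, at 10.41, 9.78, 7.45 and 9.48, and the fibroControl cells lowest, at 6.88, 3.22 and 7.54. Fibroblasts read 8.01, 8.57 and 6.25, fibroTIPeR cells 8.51, 8.74, 6.46, 8.64 and 6.45, astroTIPeR cells 8.34, 5.84, 8.49, 5.76, 5.46 and 6.01, and the mock cells 10.31 and 6.39. No difference passed: fibroControl minus cardiomyocyte was -3.40 (SE 1.13, adjusted p = 0.103), astroTIPeR minus cardiomyocyte -2.63 (SE 0.95, adjusted p = 0.159) and cardiomyocyte minus fibroblast 1.67 (SE 1.13, adjusted p = 0.672).

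The effect of the transferred RNA itself was not detected in any member. In fibroTIPeR minus fibroControl, where both groups received RNA and differed in its source, 0 of 15 member probe sets passed in limma while 0.00222% of all probe sets passed; 0 of 15 had an unadjusted p under 0.05, against 6.4% of all. In fibroTIPeR minus fibroblast 0 of 15 passed, against 0.00444% of all, and 2 were under 0.05 unadjusted, against 10.5%. In fibroControl minus fibroblast 0 passed, against 1.32%, and 4 were under 0.05 unadjusted, against 16.7%. In astroTIPeR minus astroControl 0 passed, against 0.127%, and 1 was under 0.05 unadjusted, against 9.81%. The share passing in the last comparison was 3.71% without astroControl 1 and 0.0155% without astroControl 2. The widest 95% interval among the members in fibroTIPeR minus fibroControl was that of Lmna 1457670_s_at, -3.66 to 1.30.

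Against the cardiomyocytes 4 of 15 member probe sets were higher in fibroTIPeR, namely the 3 of Vim and Lmna 1457670_s_at, where 0.56% of all probe sets passed and 0.431% passed as higher. The same 4 were higher in fibroControl, where 2.48% passed and 1.69% passed as higher. In astroTIPeR 3 were higher, without Vim 1450641_at, where 1.87% passed and 1.13% passed as higher. These comparisons share the same 4 cardiomyocytes. The median difference of the 15 was 0.55, 0.44 and 0.60 in these comparisons, beside -0.10, -0.08 and -0.03 over all probe sets.

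**Figure D5:**
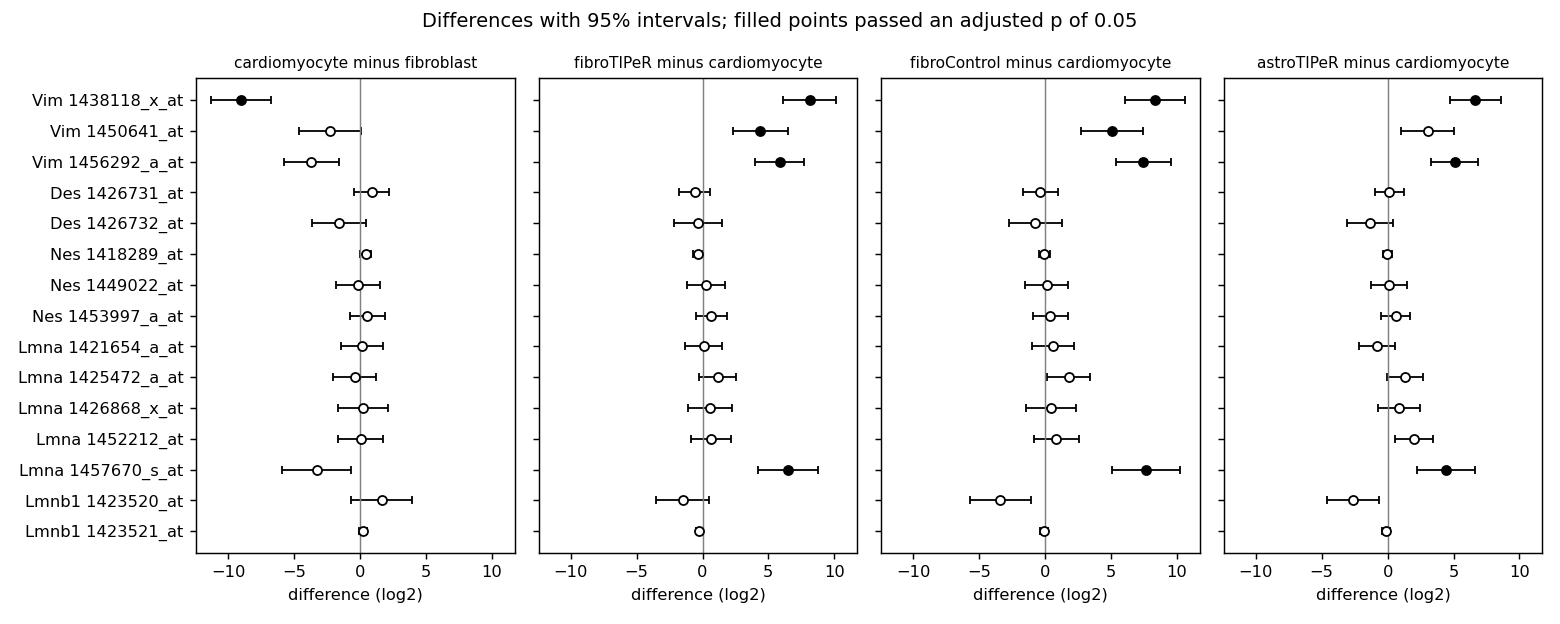
Differences (log2) of the 15 member probe sets in 4 comparisons, with 95% intervals. Filled points passed an adjusted p of 0.05; they are 1 in cardiomyocyte minus fibroblast, 4 each in the fibroTIPeR and fibroControl comparisons with cardiomyocytes, and 3 in that of astroTIPeR.

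The transfer effect was also compared between recipients, as fibroTIPeR minus fibroControl less astroTIPeR minus astroControl. No member passed. Nearest to passing was Des 1426732_at, with 3.86 (SE 1.43, adjusted p = 0.483), followed by Vim 1456292_a_at with -3.33 (SE 1.47, adjusted p = 0.567) and Lmnb1 1423520_at with 3.58 (SE 1.62, adjusted p = 0.574).

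Ordered by group mean, Vim 1438118_x_at fell from fibroblast (14.85) through fibroControl (14.17), fibroTIPeR (13.96), astroTIPeR (12.45) and astroControl (11.84) to cardiomyocyte (5.81). Only the last step passed, at 6.03 (SE 1.27, adjusted p = 0.0155), a comparison in which 0.795% of all probe sets were higher in astroControl. Vim 1456292_a_at ran from fibroControl (10.35) through fibroTIPeR (8.75), astroTIPeR (7.99), fibroblast (6.58) and astroControl (6.26) to cardiomyocyte (2.90), and Lmna 1457670_s_at from fibroControl (11.15) through fibroTIPeR (9.97), astroTIPeR (7.91), astroControl (7.14) and fibroblast (6.76) to cardiomyocyte (3.48). No neighbours differed past the threshold in these orders. Over all 15 probe sets, 1 of 75 neighbouring pairs passed. Cardiomyocytes had the lowest mean on 6 of the 15 probe sets and fibroblasts on 4.

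Among partners of cytoplasmic filaments, the clearest difference lay in desmoplakin (Dsp), which anchors desmin to the desmosomes of the intercalated disc. On Dsp 1435493_at the cardiomyocytes read 9.20, 10.52, 11.04 and 11.22 and the fibroblasts 4.99, 5.95 and 5.49. The difference was 5.02 (SE 0.86, adjusted p = 0.00805). The fibroTIPeR cells read 4.40, 4.12, 8.35, 6.56 and 6.62, all below the cardiomyocytes, and the fibroControl cells 3.07, 3.81 and 3.10. FibroTIPeR minus cardiomyocyte was -4.49 (adjusted p = 0.00308), fibroControl minus cardiomyocyte -7.17 (adjusted p = 3.86e-05) and astroTIPeR minus cardiomyocyte -5.24 (adjusted p = 1.26e-04). FibroTIPeR minus fibroControl was 2.69 without overlap, with an adjusted p of 0.511, where 1.51% of all probe sets were higher without overlap. Nebulette (Nebl), a Z-disc protein that binds desmin, was higher in cardiomyocytes by 3.98 on 1438452_at (SE 0.79, adjusted p = 0.0310), and fibroTIPeR, fibroControl and astroTIPeR were below the cardiomyocytes by differences of -4.08, -4.08 and -3.47 (adjusted p = 0.00316, 0.00703 and 0.00433). The Nebl call in cardiomyocyte minus fibroblast was lost in 9 of 18 alternatives, among them each other scaling and the fits without fibroblast 1 or 2 or cardiomyocyte 3 or 4 (adjusted p up to 0.217), that of fibroTIPeR in 3 of 22 and that of fibroControl in 2 of 18. The Dsp call in cardiomyocyte minus fibroblast was lost in 3 of 17, with the compared groups alone and without fibroblast 1 or 3 (adjusted p up to 0.0581), and that of fibroTIPeR in 3 of 21, with the compared groups alone, the 18S covariate and fibroTIPeR 4 and 5 alone (adjusted p up to 0.131). The other 2 probe sets of Dsp and of Nebl did not pass in cardiomyocyte minus fibroblast (Dsp 0.31 and 0.19, Nebl -0.93 and 0.57).

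Of the 44 probe sets for 16 linkers, chaperones and partners of cytoplasmic filaments, 2 were higher and 0 lower in cardiomyocytes than in fibroblasts, 0 and 2 in fibroTIPeR than in cardiomyocytes, 1 and 2 in fibroControl, and 0 and 2 in astroTIPeR. The third in fibroControl was filamin C (Flnc 1447812_x_at), an actin cross-linker of muscle, higher by 2.92 (adjusted p = 0.0448). This call was lost in 12 of 18 alternatives, among them each other scaling and the 18S covariate. The adjusted p rose to 0.798 at most, and to 0.257 when 1 cell was left out. Of all probe sets, 0.127% passed in cardiomyocyte minus fibroblast, and 0.56%, 2.48% and 1.87% in fibroTIPeR, fibroControl and astroTIPeR minus cardiomyocyte. The list's median difference was 0.35 in cardiomyocyte minus fibroblast, beside 0.08 over all probe sets. In fibroControl minus fibroblast 1 passed, the chaperone alpha-B crystallin (Cryab 1435837_at), higher by 1.95 (adjusted p = 0.0480), a call lost in 13 of 15 alternative settings. Of all probe sets 1.32% passed there, and 0.544% passed as higher. None passed in fibroTIPeR minus fibroControl, where Flnc 1447812_x_at, at -2.19, followed Dsp (adjusted p = 0.572). None passed in fibroTIPeR minus fibroblast, where Macf1 was 2.78 and plectin (Plec) 3.39 (adjusted p = 0.328 and 0.357), or in astroTIPeR minus astroControl, where Cryab was -1.67 and Dtna 2.0 (adjusted p = 0.186 and 0.362).

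Of 35 probe sets for 19 other intermediate filament proteins, none passed in cardiomyocyte minus fibroblast, where the neurofilament gene Nefm was -1.83 and syncoilin (Sync) -1.21 (adjusted p = 0.507 and 0.515). The list's median there was 0.34 beside 0.08 over all. Keratin 20 (Krt20 1426284_at), an epithelial keratin, read 9.65, 9.62, 9.87 and 10.00 in cardiomyocytes and was lower in fibroControl, with a difference of -4.35 (adjusted p = 0.0226), and in astroTIPeR, with -3.26 (adjusted p = 0.04998); it was the only probe set of the list to pass in either. Of all probe sets, 2.48% passed in fibroControl minus cardiomyocyte and 1.87% in astroTIPeR minus cardiomyocyte, with 0.795% and 0.733% passing as lower. The fibroControl call was lost in 6 of 18 alternatives and the astroTIPeR call in 11 of 21. None passed in fibroTIPeR minus cardiomyocyte (Krt19 -1.90 and Krt20 -2.18, adjusted p = 0.292 and 0.309) or in fibroTIPeR minus fibroControl (Krt20 2.17 and Nefl -0.95, adjusted p = 0.750 and 0.796). The same held for fibroTIPeR minus fibroblast (Krt8 -1.26 and Krt19 -1.83, adjusted p = 0.396 and 0.442), fibroControl minus fibroblast (Nefm -2.40 and Nefl 1.26, adjusted p = 0.155 and 0.233) and astroTIPeR minus astroControl (Gfap -1.84 and Krt14 -1.49, adjusted p = 0.427 and 0.434). The -1.84 belongs to another Gfap probe set than that of the astrocyte markers, whose means were 4.69 in astroTIPeR and 5.32 in astroControl.

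Of 40 probe sets for 18 partners of the nuclear lamina, 1 passed in the 8 comparisons together: thymopoietin (Tmpo 1452036_a_at), whose products bind lamins and chromatin, was higher in astroTIPeR than in cardiomyocytes by 2.88 (SE 0.71, adjusted p = 0.0301). The astroTIPeR cells read 10.39 to 11.20 there, the cardiomyocytes 9.22, 7.04, 8.84 and 7.12, and the mock astrocytes 10.69 and 10.03; the call was lost in 6 of 20 alternatives, each leaving out 1 cell. In astroTIPeR minus cardiomyocyte 1.87% of all probe sets passed, and 1.13% passed as higher. Emerin (Emd), which binds lamin A at the inner nuclear membrane, was -4.63 in cardiomyocyte minus fibroblast and 3.18 in fibroTIPeR minus cardiomyocyte (adjusted p = 0.0868 and 0.134). Farnesyltransferase alpha (Fnta), a subunit of the enzyme that modifies lamin precursors, was -3.11, 3.25 and, in fibroControl minus cardiomyocyte, 4.22 (adjusted p = 0.436, 0.188 and 0.0596), and Tmpo 1426349_s_at was -3.43 in the last (adjusted p = 0.105). Sun2, which links lamins to the cytoskeleton, was -3.05 in fibroTIPeR minus fibroblast and -3.76 in fibroControl minus fibroblast (adjusted p = 0.243 and 0.0622). In the same comparisons Tor1aip1 was 2.50 and Narf 2.37 (adjusted p = 0.284 and 0.0938). In fibroTIPeR minus fibroControl Tor1aip1 was -1.43 and Lemd3 -1.49 (adjusted p = 0.679 and 0.741), and in astroTIPeR minus astroControl Lemd3 was -2.44 and Narf -1.79 (adjusted p = 0.203 and 0.40).

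The patterns most like each member were sought by Pearson r over the 15 fibroblast and cardiomyocyte cells, which share groups and arrays. For Vim 1438118_x_at these were Tpm3 (0.95), Lasp1 (0.94) and Cttn (0.94), and r over the 8 astrocytes was 0.87, -0.40 and 0.57. For Vim 1450641_at they were Tpm3 (0.96), Lmna 1457670_s_at (0.96) and Pabpn1 (0.95), with 0.72, 0.55 and 0.53 in the astrocytes. For Vim 1456292_a_at they were Akr1a1, Pebp4 and Lgals1 (all 0.95), with 0.14, 0.04 and 0.12. Lmna 1457670_s_at was most like Lgals1 (0.98), Hmgn1 (0.96) and Vim 1450641_at (0.96), with 0.89, 0.81 and 0.55. The Vim probe sets themselves had r of 0.59 and 0.73 between 1438118_x_at and the other 2, and 0.91 between those 2. Des 1426732_at was most like Tgm2 (0.91; -0.21 in the astrocytes), Nes 1418289_at like Trpc4ap (0.90; -0.23), Lmnb1 1423520_at like Cnep1r1 (0.92; -0.26) and Lmnb1 1423521_at like Oga (0.92; 0.26). For the other members the highest r lay between 0.84 and 0.90.

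The spread of Vim 1438118_x_at over the 23 cells, an SD of 3.50, was larger than that of all 978 other probe sets with a mean within 0.5 of its own, whose median SD was 0.305. The SD of Lmna 1457670_s_at, 2.97, was larger than that of 99.3% of 2253 such probe sets, and that of Vim 1456292_a_at, 2.64, larger than that of 98.5% of 3005. For the other 4 Lmna probe sets the share was 12.4% to 17.8%, for Des 1426731_at 5.23% and for Des 1426732_at 69.3%. These shares describe the same cells as the comparisons and add no test.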

How the data were processed

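Each of 23 single mouse cells was hybridized to 1 Affymetrix array, per the labels. The authors deposited 1 table of log2 values, a scale judged from their range; their summarization and normalization are not given in the sources used, and column medians ran from 4.28 to 5.58. All columns were therefore quantile normalized. The 64 control probe sets were left out and 45037 were tested with limma 3.58.1 (statmod 1.5.0) in R 4.3.3: a mean for each of 6 groups over all 23 cells, eBayes with a trend, two-sided, Benjamini-Hochberg adjustment over all probe sets of a comparison, threshold 0.05. No filter on low values was applied, so all 15 member probe sets entered every test. Of the tested probe sets, 34945 had 1 gene symbol in the array annotation, 932 several and 9160 none listed.

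Named were all members, for each of 3 gene lists up to 4 probe sets past the threshold per comparison (or the 2 with the smallest p), and the 3 genes most alike to a member. The members and lists were chosen with earlier results of these data known. Replicate numbers were not used to pair the cells, as the closing section describes. Alternatives were other normalizations, filters, variance models, samples in the fit, an 18S covariate, probe sets per gene, the replicate number as a block, and each cell left out. On simulated data with the same group sizes, changes of 4 on the log2 scale were recovered in 67.2% (fibroControl minus fibroblast) to 79.1% (astroTIPeR minus cardiomyocyte) of probe sets, and changes of 2 in 10.4% (astroTIPeR minus astroControl) to 26.9% (astroTIPeR minus cardiomyocyte). Plots were made in Python 3.11.15 with matplotlib 3.10.9.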

Additional observations from a re-analysis of the deposited data

Results flagged for a closer look

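On Nes 1453997_a_at, astroTIPeR 1 read 6.03, apart from the other 5 astroTIPeR cells at 2.64 to 3.90. The gap to the nearest cell was 0.628 of the range of the group, just above the 95% critical value of Dixon's test for 6 cells. It was the only outlying cell among 45 combinations of probe set and group that were tested, and chance alone marks about 1 in 20. Groups of 3 cells or fewer were not tested.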

How the results depend on the processing

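The count of member probe sets past the threshold depended on the setting, and so did the share of all probe sets called, given in parentheses. In cardiomyocyte minus fibroblast it was 1 (0.127%), but 3 with array weights (7.15%), 2 with the 18S covariate (0.295%) and 0 with the compared groups alone (0.02%). In fibroTIPeR minus cardiomyocyte it was 4 (0.56%), but 2 with the compared groups alone (0.091%) and 1 with 1 probe set per gene (0.561%), the mean over the probe sets of each gene (0.385%), the 18S covariate (0.0422%) or fibroTIPeR 4 and 5 alone (0.0311%). In fibroControl minus cardiomyocyte it was 4 (2.48%), but 2 with the mean of a gene (2.61%), 1 with 1 probe set per gene (3.32%) and 0 with the 18S covariate (0.0222%). In astroTIPeR minus cardiomyocyte it was 3 (1.87%), but 6 with the values as deposited (29%), 7 with median centring (9.16%), 5 with array weights (9.34%) and 1 with 1 probe set per gene (2.13%). In fibroTIPeR minus fibroblast it was 0, but 2 with fibroTIPeR 1 to 3 alone (2.94%), and in fibroControl minus fibroblast 0, but 2 with array weights (8.4%). Fewer features per gene lower the counts by construction; the other causes were not tested. Leaving out 1 cell gave 1 in cardiomyocyte minus fibroblast, 3 to 4 in fibroTIPeR and in fibroControl minus cardiomyocyte, 2 to 3 in astroTIPeR minus cardiomyocyte, and 0 in the other 4 comparisons.

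Differences that had not passed turned their sign in 135 values over the alternatives, on 3 to 10 probe sets a comparison; 7 of these had differed by more than 1. With the 18S covariate, Vim 1456292_a_at in fibroTIPeR minus fibroblast went from 2.16 to -0.17, and Vim 1450641_at from 2.10 to -0.59 there and from 2.80 to -0.87 in fibroControl minus fibroblast. Des 1426732_at in cardiomyocyte minus fibroblast went from -1.59 to 0.15 without fibroblast 3 and to 0.078 with array weights, Lmna 1457670_s_at in fibroTIPeR minus fibroControl from -1.18 to 0.45 with fibroTIPeR 1 to 3 alone, and Lmnb1 1423520_at in astroTIPeR minus astroControl from -1.70 to 0.26 without astroControl 1. Past the threshold with the other sign were 2 values, both in astroTIPeR minus cardiomyocyte with median centring. Nes 1418289_at went there from -0.03 to 1.38 (adjusted p = 1.80e-07), with 0.25 as deposited, 0.21 with normalization within each column set, and 0.00079, 0.020 and 0.047 without astroTIPeR 2, cardiomyocyte 3 and cardiomyocyte 4. Lmnb1 1423521_at went from -0.11 to 1.36 (adjusted p = 1.01e-08), with 0.23 and 0.22 under the other 2 scalings.

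The deviations of same-numbered cells from their group means had r from -0.30 to 0.24. No r of cells with other numbers stood beside these, so they cannot show whether the numbers pair the cells. With the replicate number as a block the counts of members were 1, 0, 0, 0, 3, 4, 0 and 3 in the 8 comparisons, the lost member being Vim 1450641_at in fibroTIPeR minus cardiomyocyte (4.57, adjusted p = 0.0568), and over all probe sets fibroControl minus fibroblast gave 320 calls in place of 596.

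Over all probe sets, astroTIPeR minus cardiomyocyte gave 841 calls, of which 511 were higher, but 13060 as deposited (797 higher; median difference of all probe sets -0.997), 10866 with normalization within each column set (780 higher) and 4125 with median centring (3256 higher). Cardiomyocyte minus fibroblast gave 57, of which 28 were lower, but 14 of 36 were lower as deposited and 10 of 31 with median centring. FibroControl minus cardiomyocyte gave 1117, of which 759 were higher, but 559 of 717 with median centring. Over the settings that left out no single cell, and then over those that left out 1, the calls ranged from 9 to 3218 and from 19 to 105 in cardiomyocyte minus fibroblast, 0 to 225 and 0 to 42 in fibroTIPeR minus fibroControl (1 in the report), 0 to 1325 and 0 to 375 in fibroTIPeR minus fibroblast (2), 0 to 3782 and 70 to 404 in fibroControl minus fibroblast (596), 14 to 2069 and 79 to 643 in fibroTIPeR minus cardiomyocyte (252), 10 to 2439 and 476 to 658 in fibroControl minus cardiomyocyte, 2 to 233 and 7 to 1673 in astroTIPeR minus astroControl (57), and 369 to 13060 and 424 to 866 in astroTIPeR minus cardiomyocyte. The 1673 came without astroControl 1, the 7 without astroControl 2, and the 375 and 643 without fibroTIPeR 5.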
